A study of Caenorhabditis elegans with 2 samples.

Results

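The genes examined were the 156 protein-coding genes of Caenorhabditis elegans whose names begin with col-, taken from the 19973 protein-coding genes on the nuclear chromosomes of the WBcel235 annotation (build ce11). Whole worms at the fourth larval stage (L4), pooled male and female, of strain OP355 had been assayed by chromatin immunoprecipitation and sequencing (ChIP-seq) against MDL-1 after sonication, as 1 group of 2 biological replicates with no second condition. The strain carries the insertion wgIs355 for mdl-1 and the allele unc-119(tm4063), which both replicates share. The labels conflict on the tagged protein. A note describes GFP-FLAG at the C-terminus of KLU-1, whereas the antibody and source labels name mdl-1. As whole animals were used, the lists do not say in which tissue a region was occupied.

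The col- genes encode collagens, proteins with long repeats of glycine followed by 2 other residues that wind into a triple helix. Most are thought to build the cuticle, the outer coat that the hypodermis secretes and that is replaced at every molt, and different sets of collagen genes are active at different stages. At the L4 molt the animal changes from larval to adult cuticle, a switch that depends on the zinc-finger factor LIN-29. MDL-1, the worm's Mad-like factor, pairs with MXL-1, and factors of this type are known to bind E-boxes such as CACGTG.

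For each gene, a region was counted when its summit fell in a window that began 2000 bp before an annotated 5' end and ended 500 bp after it. The deposited candidate lists are relaxed, with 30000 regions each for replicate 1, replicate 2 and the pooled data, and they contain weak signal by design. Ranks run from 1 for the strongest signal in a list, and positions are negative upstream of the 5' end. A gene's rank in a list is that of the strongest region in its window there, which need not lie at the same place in each list. The authors' optimal list, kept for reproducibility, held 1115 peaks, which were the 1115 strongest pooled regions. The signal of a region is the authors' own value on a scale particular to its list, and the read depth is unknown. The intervals given are exact 95% Clopper-Pearson intervals that cover counting only. With 1 group, no test between conditions was possible, and all comparisons with other genes are descriptions without a p-value. Neighbouring genes can share a region, so genes are not independent replicates.

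Collagen genes had candidate regions about as often as other genes but were seldom among the strongest. In the pooled list 86 of 156 collagen genes (55.1%, interval 46.97 to 63.1%) had a region, beside 54.9% of all protein-coding genes. An optimal peak lay in the window of 1 collagen gene, col-94, which is 0.641% (interval 0.0162 to 3.52%), beside 4.51% of all genes. By comparison, 8.18% of the 269 nuclear hormone receptor genes and 15.4% of the 78 cytosolic ribosomal protein genes had an optimal peak. Among genes with a single annotated 5' end the shares were 1 of 136 collagen genes (0.735%) and 3.19% of all such genes. There the collagen interval, 0.0186 to 4.03%, included the share of all such genes. This restriction bears on the comparison because 87.2% of collagen genes had a single 5' end, beside 73.7% of all genes, and each further end widens the window. With each region given to its single nearest 5' end, 3.25% of all genes had an optimal peak. The collagen interval, again 0.0162 to 3.52%, included that share too.

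The optimal peaks closest to collagen genes lay away from their 5' ends, as the sequences and positions show. Besides the col-94 peak, 4 optimal peaks had a collagen 5' end as the nearest one, at distances beyond the window. The 101 bases centred on the summit of each of these 5 peaks are shown because they are the strongest regions assigned to any collagen gene. They are written 5' to 3' on the strand of the collagen gene, from the ce11 reference, with motif matches in capitals. The motifs searched, on both strands, were the E-box CACGTG, its variant CACGCG, and the repeat GAGAGA.
col-94: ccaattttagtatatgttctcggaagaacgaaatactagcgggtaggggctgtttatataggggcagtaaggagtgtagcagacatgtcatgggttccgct
col-185: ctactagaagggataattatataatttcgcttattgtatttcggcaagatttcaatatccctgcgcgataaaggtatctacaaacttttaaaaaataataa
col-99: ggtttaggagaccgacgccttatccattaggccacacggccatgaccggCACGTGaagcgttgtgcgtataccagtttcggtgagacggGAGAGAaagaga
col-105: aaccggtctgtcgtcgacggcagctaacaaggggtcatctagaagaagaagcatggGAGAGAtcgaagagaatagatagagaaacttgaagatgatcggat
col-181: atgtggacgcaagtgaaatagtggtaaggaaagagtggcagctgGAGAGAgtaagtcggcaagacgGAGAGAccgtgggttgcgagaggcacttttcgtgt
CACGTG occurred in the col-99 sequence alone, and GAGAGA occurred in those of col-99, col-105 and col-181.

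The col-94 peak (III:10989459-10989854) had pooled rank 548 with a signal of 73.04, and its summit lay at -1784 bp. It ranked 595 in replicate 1 and 494 in replicate 2. The summit fell in an intron of dhc-4, which encodes a dynein heavy chain, and 22 bp from the small nuclear RNA gene R07E5.16. Closer to col-94 itself, at 23 bp past the 5' end, the second pooled region ranked only 20751. The window of col-94 was 85.2% unique in 36-mers and overlapped that of 1 other collagen gene.

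The col-185 peak (X:13514375-13514770) ranked 374, with ranks 376 and 388 in the replicates, and lay between genes at -3476 bp. In the window of col-185 itself the best pooled region ranked 16569 at -632 bp, replicate 1 had none, and replicate 2 had 2, the better at rank 3782 and -616 bp. The col-99 peak (IV:143774-144169) ranked 403 and lay in an intron of col-99, at 3947 bp past the 5' end and 10 bp from a tRNA gene. The window of col-99 held no region in any list, so this gene counts as one without a region. The col-105 peak (IV:1371285-1371680) ranked 759 and lay at -12258 bp, and the col-105 window held a region of pooled rank 25009. The col-181 peak (X:12106086-12106481) ranked 814 and lay beyond the gene, at 1138 bp past the 5' end and 65 bp from a tRNA gene. Thus 3 of the 5 peaks lay within 200 bp of a tRNA, snRNA or snoRNA gene, beside 69 of the 1115 optimal peaks (6.19%). The part of these RNA genes in the peaks was not tested. Without summits that close to such genes, no collagen gene had an optimal peak in its window, beside 4.30% of all genes.

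Below the optimal limit, collagen genes remained less frequent than all genes among the stronger regions and drew level among the weaker ones. A pooled region of rank 2500 or better lay in the window of 6 collagen genes (3.85%, interval 1.42 to 8.18%), beside 9.31% of all genes. At rank 5000 or better there were 19 (12.2%, interval 7.49 to 18.4%), beside 16.3%. At rank 10000 or better there were 34 (21.8%, interval 15.6 to 29.1%), beside 27% of all genes. At rank 20000 the shares were 44.2% and 43.3%. Only the intervals at the optimal limit and at rank 2500 lay wholly below the share of all genes. Over the genes with a region, the median of the best pooled rank was 12225.5 for collagen genes (quartiles 6237 and 18458) and 10261 for all genes.

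**Figure D1:**
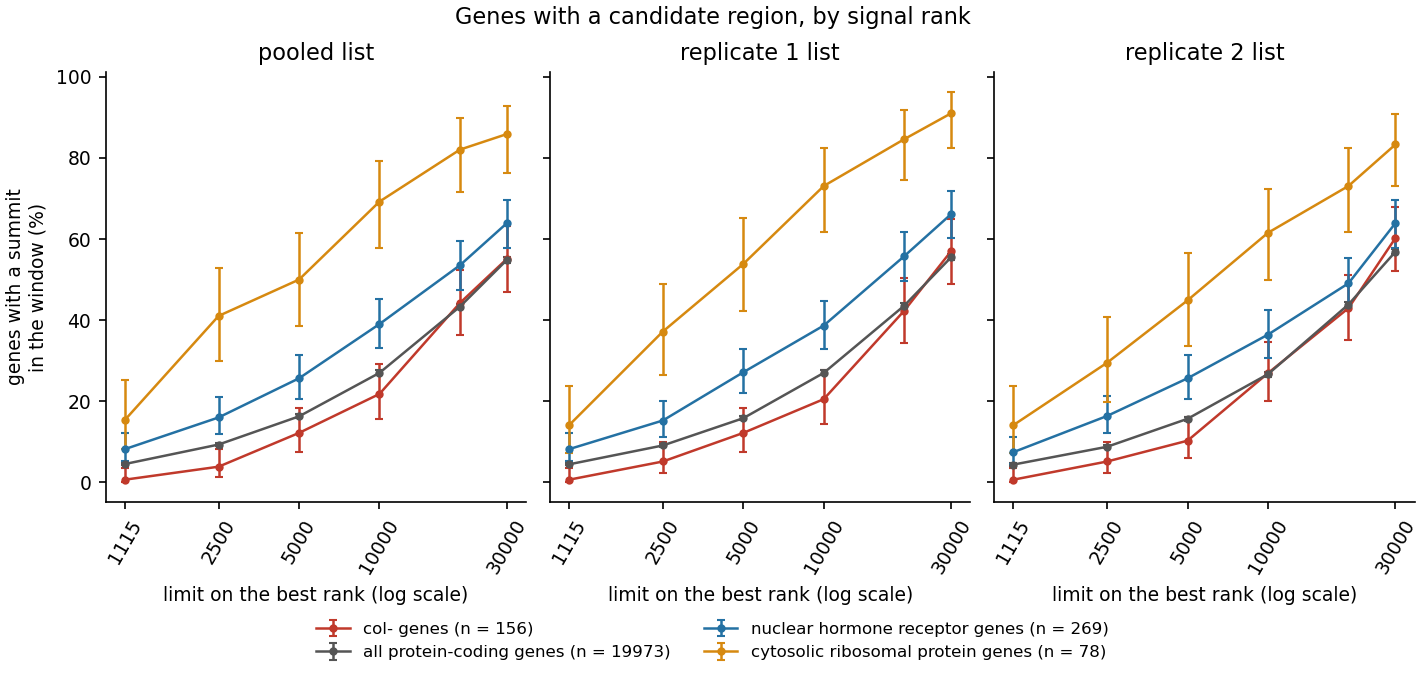
Percentage of genes whose best region in the window reached a given rank limit, pooled and by replicate, for the 156 collagen genes and 3 other groups of genes. The horizontal axis is logarithmic and bars are exact 95% intervals. In the pooled panel the collagen line starts at 0.641% at rank 1115 and meets that of all genes at about rank 20000. In replicate 2 the 2 lines already meet at rank 10000 (26.9% and 26.7%).

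The replicate lists gave similar shares. In replicate 1, 89 collagen genes (57.1%) had a region, beside 55.5% of all genes, and in replicate 2 there were 94 (60.3%), beside 56.9%. Among the top 1115 regions, each replicate had 1 collagen gene, beside 4.43% of all genes in replicate 1 and 4.37% in replicate 2. At rank 2500 each replicate had 8 collagen genes (5.13%, interval 2.24 to 9.85%), beside 9.08% and 8.76%, so that here, unlike in the pooled list, the interval included the share of all genes. The lists differed at rank 10000, where replicate 2 had 42 collagen genes (26.9%), beside 26.7%, and replicate 1 had 32 (20.5%), beside 26.98%.

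The strongest regions inside collagen windows, after that of col-94, had pooled ranks from 1534 downward and, in 9 of 11 genes, lay between the 5' end and -1000 bp or inside the gene. The 101 bases at the summits of 5 of them are shown, which are the next in rank once regions over annotated untranslated parts (those of col-3, col-63, col-10 and col-20) are left out. Strand, build and capitals are as above.
col-97: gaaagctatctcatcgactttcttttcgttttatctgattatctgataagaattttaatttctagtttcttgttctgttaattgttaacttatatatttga
col-166: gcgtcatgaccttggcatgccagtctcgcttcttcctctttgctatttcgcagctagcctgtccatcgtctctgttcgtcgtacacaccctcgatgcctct
col-38: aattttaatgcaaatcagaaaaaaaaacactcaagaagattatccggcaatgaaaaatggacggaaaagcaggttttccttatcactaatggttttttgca
col-172: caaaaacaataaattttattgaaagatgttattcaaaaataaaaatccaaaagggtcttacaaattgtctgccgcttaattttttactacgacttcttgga
col-125: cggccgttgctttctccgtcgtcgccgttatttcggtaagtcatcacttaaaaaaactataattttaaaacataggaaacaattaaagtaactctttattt
None of the 3 motifs matched in these 5 sequences, so no base is in capitals.

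The gene with the next best rank was col-3, at 1534 with a signal of 41.01, below the lowest signal of the optimal list, 48.23. Its region lay at -1956 bp, over the 3' end of T28C6.5 and closer to the 5' end of col-117, and held a CACGTG near the summit. It ranked 3281 in replicate 1, replicate 2 had no region there, and the col-3 window was the least unique of all collagen windows, at 31.9%. For col-97 the pooled rank was 1902 at -430 bp, with 1758 in replicate 1. In replicate 2 the region at -440 bp ranked 14955 and the best one, of rank 9022, lay at -1976 bp. Of these genes, col-166 had its better replicate in the second, with pooled rank 1962 at -296 bp and ranks 3832 and 1762. The region of col-172 (rank 2567, -626 bp) ranked 2916 in replicate 1 and had no counterpart in replicate 2. The col-125 region, at 106 bp past the 5' end, ranked 3002 pooled and 2191 in replicate 1, and the only region of replicate 2 in this window was another one, at -181 bp, of rank 22972.

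In col-10 the summit sat at 9 bp, in the 5' untranslated part, with pooled rank 2598. The best regions in the replicates lay at -175 bp (2938) and 40 bp (6384). The col-20 region (rank 2605, -1341 bp, replicates 3116 and 5558) lay over the 3' end of the neighbouring collagen gene col-73. Both replicates placed a region close to -622 bp of col-178, with pooled rank 3346 and replicate ranks 3951 and 6439. For col-103 (rank 3397, -675 bp) the replicates gave 2638 and, at another position (211 bp), 7974, and the pooled summit lay in an intron of F56B3.2. Across the 12 best-ranked collagen genes, replicate 2 lacked a region for col-3 and col-172 and gave a worse best rank in the window than replicate 1 for 8 of the other 10, col-94 and col-166 being the exceptions. Over all 64 collagen genes with a region in both, replicate 1 gave the better rank for 39.1%, beside 51.4% of all genes.

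Collagen genes carried more than 1 pooled region about as often as all genes. The counts were 0 in 70 collagen genes, 1 in 47, 2 in 26 and 3 or more in 13. Over all 19973 genes they were 9011, 6009, 2983 and 1970. The mean was 0.891 per collagen gene, beside 0.971 for all genes. The highest collagen count was 4, in col-80 on chromosome II, where the best pooled region ranked 4769 and lay at -134 bp. The best in the replicates were other regions, of rank 2990 at -1065 bp in the first and of rank 2327 at 59 bp in the second. Its neighbours there include col-39, and 1 of the 4 regions lay nearer to the 5' end of col-39. The best region of col-81 ranked 3916 pooled, at -1494 bp, and the replicates had regions at -1502 bp (10274) and -1497 bp (14160), while replicate 2 had a stronger one, of rank 4489, at -1783 bp. Upstream of col-168 were 3 regions, the best at -426 bp with pooled rank 4825, and only 80.2% of this window was unique. Replicate 2 had a region of rank 1413 at -448 bp, whereas the best in replicate 1 ranked 4127 and lay elsewhere, at -969 bp. In all, 133 different pooled regions made 139 gene-region pairs, since 29 collagen windows overlapped another collagen window.

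Collagens listed for the L4 stage had regions more often than those listed for the adult, although these lists are short and the difference was not tested. The lists were also chosen with earlier results of these data known, so this contrast cannot show a difference between stages. All 5 collagens listed as active in L4 had a region in the pooled list and in both replicates, beside 39.7% of all genes with a region in both. The strongest were col-38 (pooled 2007, replicates 2361 and 4969, at -220 bp) and col-63 (pooled 2173, replicates 1906 and 2701, at -559 bp, but at 107 bp in replicate 2). The other pooled region of col-38, of rank 2764 at -449 bp, lay closer to the 5' end of the ribosomal protein gene rpl-5. The pooled summit of col-63 lay in the 3' untranslated part of ceh-8, although the 5' end of col-63 was the nearest. The remaining L4 genes were weaker, with ranks 6667, 10548 and 7632 for col-71. For col-49 they were 11941, 15781 and 28996, the last at another position. For col-138 they were 21468, 8278 and 23538, at 3 different positions (-751, -123 and -1391 bp). Only col-38 and col-63 were thus in the top 5000 of all 3 lists.

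Of the 6 collagens listed as adult, 2 had a pooled region (33.3%), beside 54.9% of all genes, and each replicate had a region for 3 (50%). The 2 with a pooled region were col-120 and col-183. For col-120 the ranks were 5685 at 31 bp pooled, 4666 at 129 bp and 4157 at -126 bp. For col-183 the ranks were 13484 at -1822 bp pooled, 16159 at -1815 bp, and 7531 at 59 bp in replicate 2. The pooled summit of rank 13484 lay in a coding exon of the neighbouring col-184, whose 5' end was the nearest. At 57 bp past the 5' end of col-183 itself, the pooled region ranked only 29634. The well-studied adult marker col-19, a target of LIN-29, had a region in replicate 2 alone, at rank 2391 and -870 bp. For col-119 only replicate 1 had one, at rank 29340, and col-7 and col-62 had none in any list. The exact interval was 47.8 to 100% for the 5 L4 genes in both replicates and 4.33 to 77.7% for the 2 of 6 adult genes, so the 2 intervals overlap. The 5 L4 genes had the same interval in the pooled list, and there both intervals include the 54.9% of all genes. Of 7 collagens listed for dauer and earlier stages, 5 had a pooled region (71.4%, interval 29.0 to 96.3%), beside 54.9% of all genes. The strongest besides col-10 was col-2 at 3513, and col-13 and col-14 had none. Transcript levels were not used here, and the stage lists come from general knowledge of the genes.

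**Figure D2:**
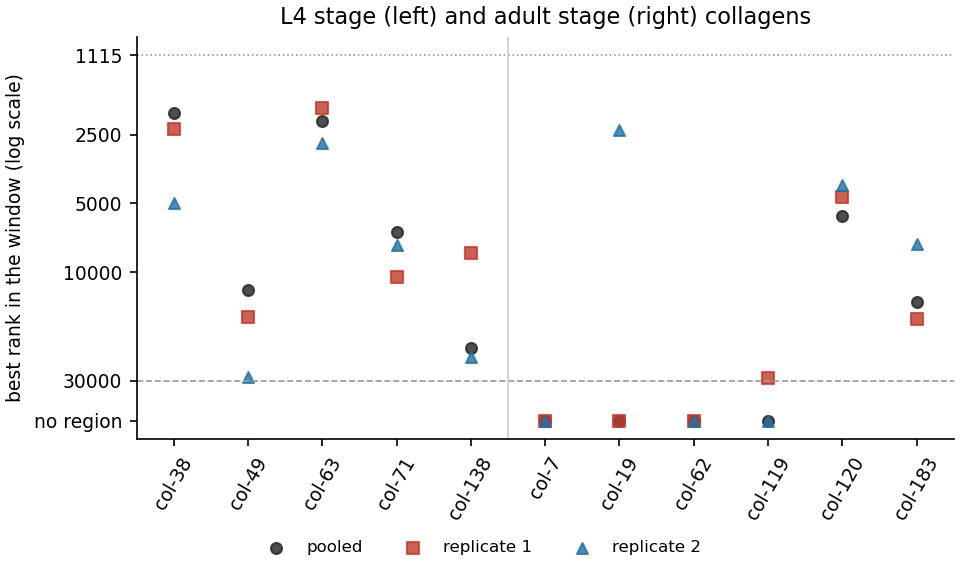
Best rank in the window for the 5 collagens listed for L4 and the 6 listed for the adult, in the pooled list and each replicate, on a logarithmic axis with strong regions at the top. The dotted line is the optimal limit of 1115, the dashed line is the end of the lists at 30000, and points under it are genes with no region, which include col-7 and col-62 in all 3 lists.

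The replicates found regions at the same collagen genes about as often as at other genes, whereas the shares with close summits or with 2 strong ranks were lower, a difference that was not tested. Both replicates had a region for 64 collagen genes (41.0%, interval 33.2 to 49.2%), beside the 39.7% of all genes given above. Only replicate 1 had one for 25, only replicate 2 for 30 and neither for 37. Over all 19973 genes these counts were 3154, 3424 and 5458, which are similar shares. Among genes with neither, 1 collagen gene and 434 of all genes had a pooled region. This left 36 collagen genes with no region in any list. Summits of the replicates within 200 bp of each other were found for 33 collagen genes (21.2%), beside 24.6% of all genes, which was 51.6% of the collagen genes with both and 61.9% of all genes with both. Both best ranks were within the top 10000 for 15 collagen genes (9.62%) and 15.6% of all genes. Spearman's rho between the replicates' best ranks was 0.26 over 64 collagen genes and 0.52 over 7937 genes. These are descriptions over genes, which share libraries and, for neighbours, regions. Of genes with a region in a single replicate, the best ranked were col-85 (2168), col-104 (2195) and col-181 (2334), all in replicate 1. The pooled region of col-85 ranked 3879, and its summit lay 17 bp from a tRNA gene.

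**Figure D3:**
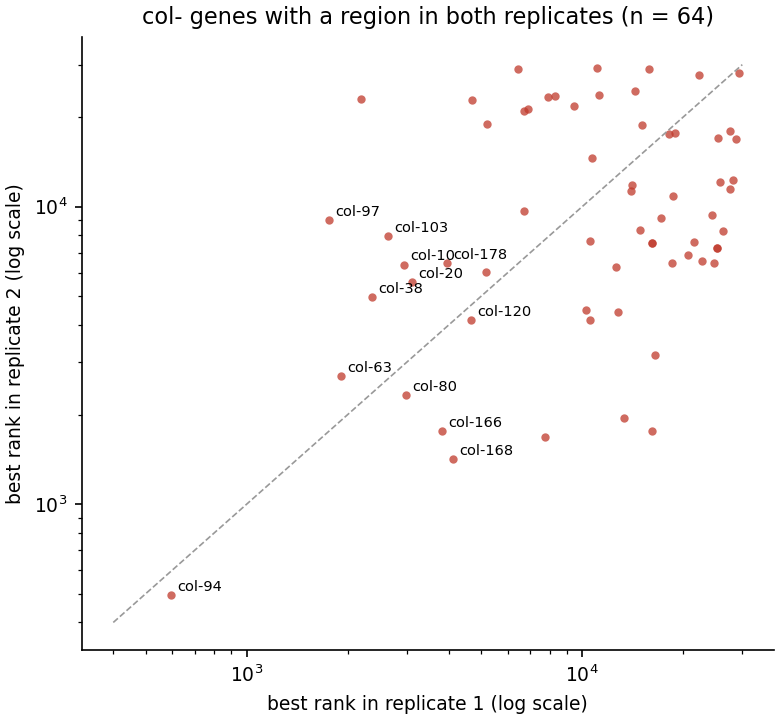
Best rank in replicate 1 against best rank in replicate 2 for the 64 collagen genes with a region in both, on logarithmic axes, with the line of equal ranks dashed. Gene names mark ranks of at most 5000 in replicate 1 and 10000 in replicate 2, and col-94 (595 and 494) stands alone at the strong end.

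Along the window, collagen regions were densest just upstream of the 5' end, as were those of all genes. The bin from -500 to 0 bp held 24.4 pooled pairs per 100 collagen genes and 28.6 per 100 of all genes, whereas ribosomal protein genes had 76.9. From -2000 to -1500 bp the values were 10.3 and 16.4. From 0 to 500 bp they were 18.6 and 16.8. The median position of the best pooled region was -409 bp for collagen genes and -526 bp for all genes, and in the replicates it was -297 and -380 bp, beside -546 and -549 bp. Collagen genes are short, with a median length of 1220 bp beside 2027 bp for all genes. The nearest 5' end belonged to a collagen gene for 110 of the 133 pooled regions (82.7%), so 23 regions counted here are closer to a gene of another name.

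**Figure D4:**
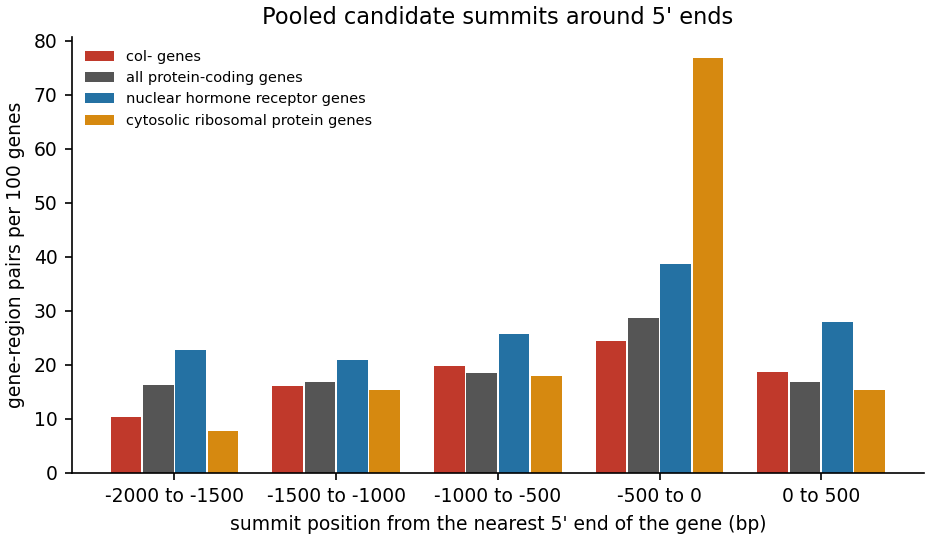
Pooled gene-region pairs per 100 genes in 500-bp bins of summit position from the gene's nearest 5' end, for collagen genes, all protein-coding genes and 2 comparison groups. The collagen bars lie between 10.3 and 24.4 and are highest at -500 to 0 bp, where the bar of ribosomal protein genes reaches 76.9.

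The annotation at the summits was compared with that of all genes. Of the 133 pooled summits 43.6% were intergenic, beside 48.9% of the 15581 regions of all genes. Introns held 27.8%, beside 31.3%. Coding exons held 17.3% (interval 11.3 to 24.8%), beside 11.9%, and 5' untranslated regions held 6.77% (interval 3.14 to 12.5%), beside 3.73%. In replicate 1 coding exons held 33 of 134 summits (24.6%, interval 17.6 to 32.8%), beside 13.5%, and in replicate 2 they held 18.8% (interval 12.6 to 26.5%), beside 14.4%. The interval for coding exons thus lay above the share of all genes in replicate 1, and included it in replicate 2. In replicate 2, no summit of 133 lay in a 5' untranslated region, which allows a share of up to 2.26% by a count of 3, beside 3.79% of all, and the pooled list and replicate 1 had such summits (9 and 5).

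Motifs at the summits were counted in small numbers. CACGTG lay within 50 bp of 2 of the 133 pooled summits (1.50%, interval 0.183 to 5.33%), beside 3.83% for all genes. Within 100 bp it lay at 9 (6.77%, interval 3.14 to 12.5%), beside 6.55%, so the share was not lower at that width. The 2 regions with a match within 50 bp were the one at col-3 and a weak one of rank 29634. The weak one lay in a coding exon of col-183 and also within the window of col-184. The variant CACGCG was found at 1 summit (0.752%), beside 2.27%. GAGAGA was found at 8 (6.02%, interval 2.63 to 11.5%), beside 10.02%. For GAGAGA the replicates differed, with 13 of 134 summits in replicate 1 and none of 133 in replicate 2, which allows up to 2.26% by a count of 3, whereas all genes had 9.99% and 9.26%. Within the top 5000 pooled regions CACGTG was at 1 of 21 collagen summits and 8.68% of all, and GAGAGA at 3 of 21 and 21.5%. The pooled counts are small and each pooled interval includes the share of all genes. The absence of GAGAGA in replicate 2 is the exception, since its exact interval ends at 2.74%.

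The promoters themselves differed in composition. In the stretch from 250 bp before to 50 bp after the outermost 5' end, CACGTG was present in 2 collagen genes, col-97 and col-183 (1.28%, interval 0.156 to 4.55%), beside 5.82% of all genes. The TATA-like word TATAAA was present in 103 (66.0%, interval 58.0 to 73.4%), beside 37.95%. GAGAGA was present in 42 (26.9%, interval 20.1 to 34.6%), beside 21.8%. TGATAA, the letters of a GATA-factor site, was found in 29.5% and 30.2%. The median GC content was 38% and 34.3%. All motifs were searched on both strands and a match is not a site.

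Collagen genes were not spread evenly over the chromosomes, and neither were their regions. Chromosome IV held 41 of the 156 (26.3%), beside 16.4% of all genes. On chromosome II, 19 of 24 collagen genes had a pooled region (79.2%, interval 57.9 to 92.9%), beside 52.2% of all genes there. On chromosome V, 11 of 31 had one (35.5%, interval 19.2 to 54.6%), beside 46.5%. On the other 4 chromosomes the shares were 52.4% on I, beside 58.6% of all genes there, and 50% on III, beside 63.2%. They were 56.1% on IV, beside 53.8%, and 59.3% on the X, beside 63.1%. Chromosome II was the only one whose interval excluded the share of all its genes, and among 6 chromosomes examined after earlier results this is a description.

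**Figure D5:**
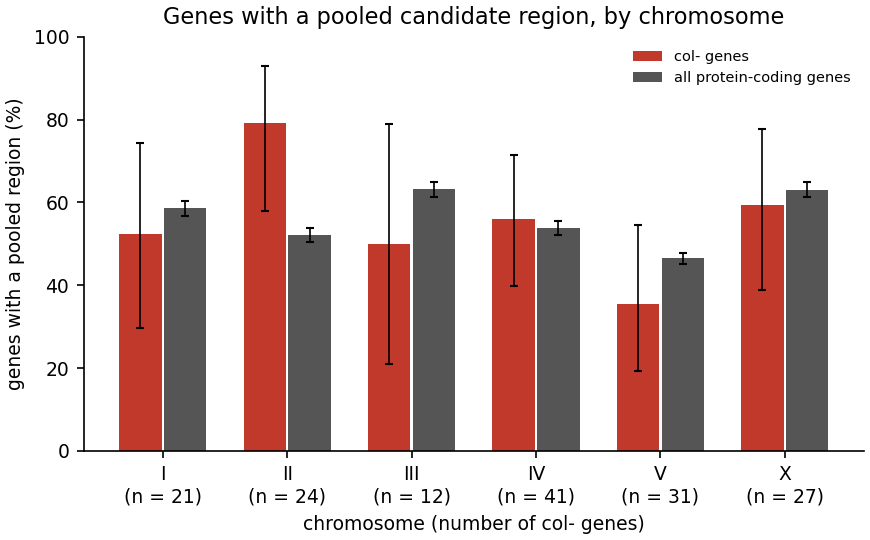
Percentage of genes with a pooled candidate region on each chromosome, for collagen genes and all protein-coding genes, with exact 95% intervals as bars and the number of collagen genes in parentheses. Chromosome II stands at 79.2% for collagen genes and 52.2% for all genes.

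Other genes of cuticle building were taken from lists of structural genes, enzymes and regulators. These lists were chosen with earlier results of these data known, so their shares cannot show a difference from all genes. Of 20 cuticle collagens named for their body-shape phenotypes (bli, dpy, lon, rol and sqt genes), 16 had a pooled region (80%, interval 56.3 to 94.3%), beside 54.9% of all genes. None had an optimal peak, which at 4.51% of all genes is fewer than 1 gene in a list of this length and so shows no difference. Their best ranks were 2329 for sqt-3, 2867 for bli-6, 2958 for dpy-7 and 3041 for lon-3. The divergent neighbours dpy-2 and dpy-10 share a region of rank 13436, and dpy-3, dpy-8, dpy-13 and dpy-14 had none in the pooled list, although dpy-13 had regions in both replicates and dpy-3 in replicate 2. Of 3 collagens of basement membranes and related types, emb-9 had no region, let-2 had one of rank 25619 and cle-1 one of 8179. Of 15 genes for collagen processing, 12 had a pooled region (80%, interval 51.9 to 95.7%), beside 54.9% of all genes. None had an optimal peak, beside 4.51% of all genes, and this list is too short as well for that absence to show a difference. The strongest were pdi-2, a protein disulfide isomerase, at 1800, phy-2, a prolyl 4-hydroxylase subunit, at 1904, and dpy-11, a thioredoxin-like protein, at 2111.

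Among 13 listed regulators of cuticle genes, all had a pooled region, beside 54.9% of all genes. An optimal peak was found for 4 of them (30.8%, interval 9.09 to 61.4%), beside the 4.51% of all genes. These were lin-42, the worm relative of period and a regulator of molting rhythm, at rank 498 (258 and 1305 in the replicates). The others were lin-14, a heterochronic factor, at 586 (1119 and 238), peb-1 at 827 (430 and 3083) and mab-10, a cofactor of LIN-29, at 962 (2396 and 407). For lin-29 itself the best region ranked 20553. The regulators had 4.54 pooled regions per gene, beside 0.891 for the col- genes, and they have up to 6 annotated 5' ends, which widens their windows. Among the top 1115 regions of each replicate, 2 of the 13 regulators had one (15.4%, interval 1.92 to 45.5%). The shares of all genes there were 4.43% and 4.37%. The list was chosen with earlier results of these data known, so these shares cannot show an excess.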

How the data were processed

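ChIP-seq peak lists of 2 biological replicates in 1 group were analysed. The signal values in the deposited lists are those of the authors' caller, per the file layout. Aligner, caller, versions, reproducibility threshold and depth were not given in the sources used. Per the labels, the lists exist for builds ce10 and ce11, and ce11 alone was used. Regions were ranked by signal within each list, and summits came from the deposited offsets. Genes and 5' ends came from Ensembl release 115 (WBcel235). The tools were Python 3.11.15, pandas 2.3.3, numpy 2.4.6, and, for intervals, scipy 1.17.1. The assignment code was tested on simulated data, where 200 of 200 planted regions were recovered.

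Members, gene lists, motifs and tests were chosen with earlier results of these data known. Named members were those with an optimal peak in or nearest to their window, the 12 best pooled ranks, the 5 with most pooled regions, the L4 and adult lists, the 3 best-ranked with a region in 1 replicate, and genes nearest to a named member's region. Named outside this rule were col-2, col-13, col-14 and the listed genes of the cuticle groups. The share of unique 36-mers served as mappability. Alternatives changed the window, the 5' ends, the assignment, the regions used, the genes and the motif width, and left out each replicate.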

Additional observations from a re-analysis of the deposited data

How the results depend on the processing

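The share of collagen genes with a pooled region (55.1%) became 42.95% with a window of 1000 bp upstream to 200 bp downstream, 46.8% with each region given to its single nearest 5' end and 21.8% with the 10000 strongest regions. The difference from all genes was 0.244 percentage points and ranged from -5.28 (members whose window overlaps no other member's, against all genes) to 3.38 (replicate 2 alone). It turned negative with members alone, with the 10000 strongest regions (-5.20) and with windows at least 95% unique (-0.989), so its sign is not fixed. The 1 gene with an optimal peak became 0 with the narrow window (interval 0 to 2.34%, beside 3.17% of all genes). With members alone it was 0 (interval 0 to 2.86%, beside 4.51% of all genes). Windows at least 95% unique gave 0 (interval 0 to 3.39%, beside 5.17% of all such genes). Leaving out summits near small RNA genes gave 0 (interval 0 to 2.34%, beside 4.30% of all genes). The uniqueness and small RNA alternatives were chosen after seeing the data. The median best rank was 4796 with the 10000 strongest regions. The mean number of regions (0.891) was 0.551 with the narrow window, 0.865 with 1 outermost 5' end, 0.673 with the nearest end, 0.779 with members alone, 1.03 with any overlap and 0.276 with the 10000 strongest, and leaving out a replicate gave 0.885 to 0.891. The share with a region in both replicates (41.0%) was 23.1%, 32.7% and 9.62% with the narrow window, the nearest end and the 10000 strongest. The median position (-409 bp) was -249 bp and -215 bp with the first 2 of these, and -380 to -297 bp when a replicate was left out. CACGTG within 100 bp was at 6.77% of summits, beside 6.55% for all genes. GAGAGA ranged from 0% without replicate 1 to 9.70% without replicate 2. Of 68 values, 45 stayed within the spread used for their kind of value. The causes were not tested.

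No paired analysis was possible because there was 1 group. The depth is unknown, and most collagen regions lie below the optimal limit, where the lists hold weak signal by design. Only 68.6% of collagen windows were at least 95% unique, beside 76.6% of all genes, and the part of repeated sequence in the ranks was not tested.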
